A study of Mus musculus with 6 samples.

Results

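The genes described here are 35 genes of mitosis, the step in which a cell divides its copied chromosomes between 2 daughter cells. They encode the kinase that starts mitosis and its cyclins, the kinetochore that ties chromosomes to the spindle, the checkpoint that watches this attachment, the spindle itself and the machinery that ends the process. They were taken by gene symbol from a table of 23366 genes, and all 35 were found. RNA had been sequenced from epithelial cells of the mouse submandibular gland, 1 of the major salivary glands, from adults aged 12 weeks. The p63 knockout group and the p63 wild-type group held 3 libraries each. The transcription factor p63 is the product of Trp63 and marks basal epithelial cells, and the study's title concerns its part in keeping the proliferative potential of salivary stem and progenitor cells. How the knockout was made, in which cells and from what age p63 was lost, and whether a library is 1 mouse or a pool, is not given in the sources used here. Values are in TPM (transcripts per 1000000), a level corrected for gene length and scaled to the same total in every library.

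To check the labels, Trp63 was read first. Knockout libraries 1, 2 and 3 held 1.59, 0.816 and 1.76 TPM of it, and wild-type libraries 1, 2 and 3 held 3.48, 1.85 and 3.68 TPM. Whether these reads fall in the deleted part of the gene is not given in the sources used here. It was lower in all knockout libraries, but did not pass limma's test over all genes (log2 fold change -0.74, SE 0.27, adjusted p = 0.27). The epithelial genes Epcam, Cdh1, Krt8 and Krt18 were at 37.5 TPM or more in every library. The other epithelial genes listed, Krt7 and Krt19, were below every wild-type library in all knockout libraries. Knockout library 3 stood apart from the rest. On the scale log2(TPM + 1), used for all differences below, the median gene of the 11268 tested lay at -0.29 in that library relative to the wild-type mean, against 0.27 in knockout library 1 and 0.24 in knockout library 2. It had 8254 genes listed at 0, against 6812 to 7797 in the others, and its 50 most abundant genes took 80.3% of its total, against 69.2% to 75.9%. Gene values in TPM are shares of 1 total, so the values of a library are read beside its median. Sequencing depth is unknown, and the counting error of low values cannot be given. The part of these library differences in the values below was not tested.

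Cell division genes follow the cell cycle. Most mitotic genes are silent in resting cells and are switched on together after the DNA has been copied. In resting cells a repressor complex named DREAM holds them off, and in dividing cells the activators B-Myb and FoxM1 drive them. Their promoters often carry a short element called the CHR, with CCAAT boxes that bind NF-Y. In the adult submandibular gland few epithelial cells divide, so the genes are usually low there.

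The promoters below show these elements in members on which the results turn. They are the 4 members with a promoter on file that stood furthest above all other libraries in knockout library 3, and Bub3, which had the highest wild-type level and varied little between libraries. Each line holds the 250 bases before the RefSeq start site in GRCm38.p6, 5′ to 3′ on the gene's strand. Capitals mark the CHR core (TTTGAA or TTCGAA) and the CCAAT box (CCAAT), on either strand. Where Bub3 has several start sites, the one furthest upstream is shown.
Ube2c, chr2:164769679-164769928, plus strand: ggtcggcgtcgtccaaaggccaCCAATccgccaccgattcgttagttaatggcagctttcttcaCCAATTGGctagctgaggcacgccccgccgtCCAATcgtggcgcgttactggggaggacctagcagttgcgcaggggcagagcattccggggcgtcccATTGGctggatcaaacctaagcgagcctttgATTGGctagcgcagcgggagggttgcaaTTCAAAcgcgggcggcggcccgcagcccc
Mki67, chr7:135716380-135716629, minus strand: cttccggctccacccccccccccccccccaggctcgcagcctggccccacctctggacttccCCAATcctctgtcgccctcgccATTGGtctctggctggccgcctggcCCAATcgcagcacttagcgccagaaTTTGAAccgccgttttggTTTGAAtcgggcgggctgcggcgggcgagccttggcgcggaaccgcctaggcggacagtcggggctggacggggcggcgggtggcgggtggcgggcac
Cdc20, chr4:118437344-118437593, minus strand: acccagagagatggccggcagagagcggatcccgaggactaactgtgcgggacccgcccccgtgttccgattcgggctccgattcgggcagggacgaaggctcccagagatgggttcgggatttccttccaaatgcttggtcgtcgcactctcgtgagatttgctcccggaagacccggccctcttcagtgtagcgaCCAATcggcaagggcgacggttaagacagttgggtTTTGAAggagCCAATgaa
Ccnb2, chr9:70421555-70421804, minus strand: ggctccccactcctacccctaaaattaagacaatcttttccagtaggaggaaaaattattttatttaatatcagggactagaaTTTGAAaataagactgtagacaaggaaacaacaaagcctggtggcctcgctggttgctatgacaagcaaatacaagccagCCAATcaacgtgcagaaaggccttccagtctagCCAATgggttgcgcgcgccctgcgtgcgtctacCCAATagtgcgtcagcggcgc
Bub3, chr7:131560120-131560369, plus strand: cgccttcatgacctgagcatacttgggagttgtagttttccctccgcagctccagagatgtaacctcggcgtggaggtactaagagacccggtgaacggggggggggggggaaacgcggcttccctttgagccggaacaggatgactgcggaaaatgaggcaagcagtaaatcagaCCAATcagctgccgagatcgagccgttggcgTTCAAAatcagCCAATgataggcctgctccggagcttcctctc

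Promoters were matched by symbol for 29 of the 35 genes, and none was matched for Ccna2, Aurkb, Incenp, Spc24, Kif20a and Tpx2. A CCAAT box was found before the start of 22 of the 29 (75.9%), against 37.5% of all 27025 genes with a promoter. At least 2 boxes, overlapping ones on opposite strands included, were found in 15 members (51.7%, against 11.5%). The CHR core was found in 12 (41.4%, against 19.6%), and both elements in 11 (37.9%, against 7.93%). Both elements were found in members that were high in knockout library 3 and in members that were not. Of the 18 that were at least 1 log2 unit above every other library there, 14 had a CCAAT box, 8 a CHR core and 4 neither. Of the other 11, 8 had a CCAAT box, 4 a CHR core and 2 neither. Bub3 carries both elements in its printed promoter, as does Ube2c. These are matches of letters, not shown binding sites.

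One library, knockout library 3, held high levels of nearly all of these genes, and the other 5 held low levels. Summed over the 35 genes, the level was 214 TPM in knockout library 3, 62.0 and 50.01 TPM in knockout libraries 1 and 2, and 48.5, 52.4 and 54.7 TPM in wild-type libraries 1, 2 and 3. The median gene stood at 4.31 TPM in knockout library 3 and at 0.647 and 0.361 TPM in the other knockout libraries, against 0.570, 0.577 and 0.730 TPM in wild type. Knockout library 3 was the highest of all libraries for 31 of the 35 genes, where it was the highest for 4.9% of all genes in the table. It exceeded the next library at least 2-fold for 29 genes, at least 5-fold for 18 and at least 10-fold for 4. The median ratio to the next library was 5.30. No share of all genes was computed for these ratios. Many rest on low values, since 16 of the 35 genes were under 1 TPM in every other library.

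**Figure D1:**
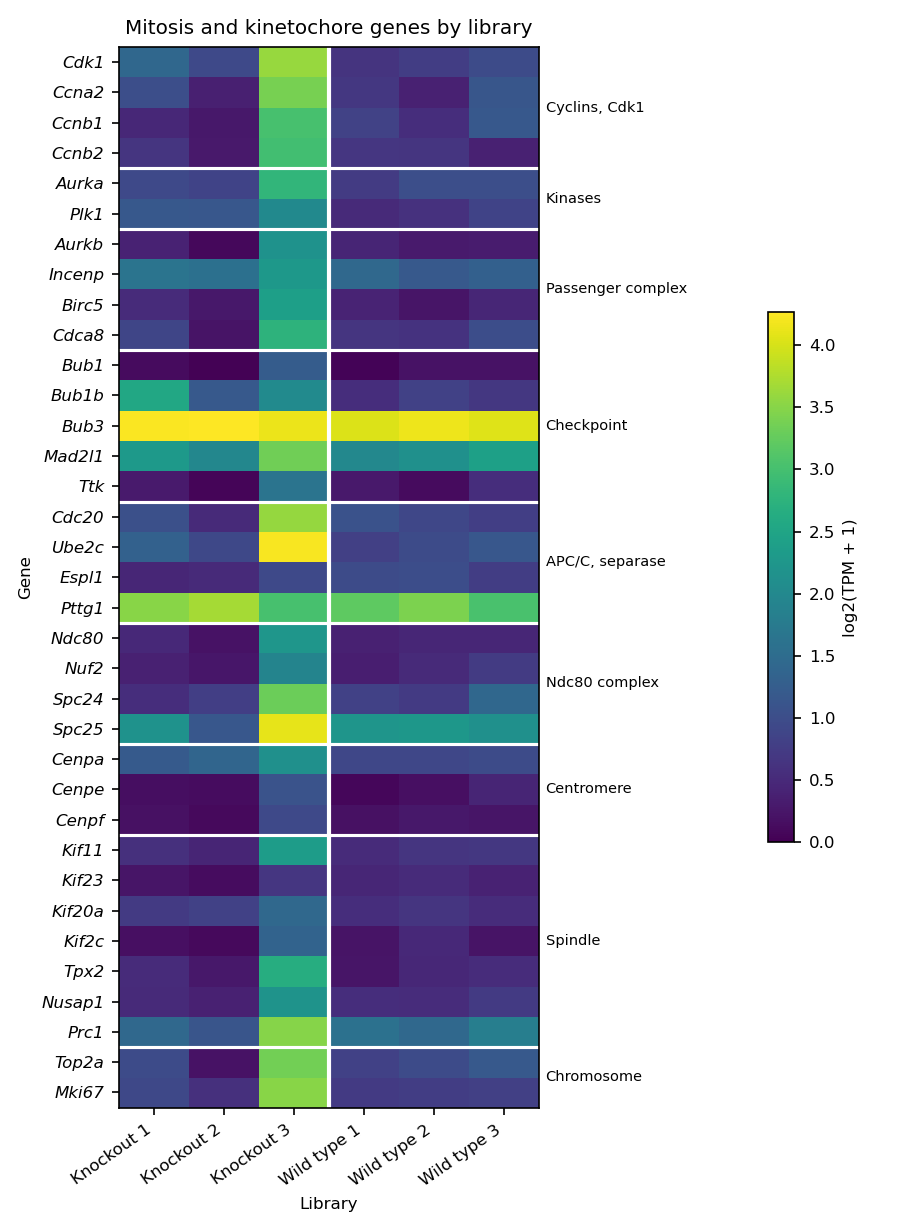
Level of each of the 35 genes (rows, grouped by role) in each of the 6 libraries (columns), as log2(TPM + 1) by colour. The column of knockout 3 is brighter than the other 5 in 31 rows, while Bub3 and Pttg1 are bright in every column.

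Relative to the wild-type mean, the median difference of the 35 genes was 1.73 log2 units in knockout library 3, 0.052 in knockout library 1 and -0.20 in knockout library 2. In knockout library 3, 32 of the 35 lay above every wild-type library. So did 8.96% of all genes in the table and 10.7% of the 12414 genes that reached 1 TPM in at least 1 library. In knockout library 1, 12 of the 35 did (35.8% and 55.5% by these 2 backgrounds), and in knockout library 2, 7 did (36.6% and 54.4%). Knockout library 2 instead had 21 of the 35 below every wild-type library (19.5% and 27.9%). It held the lowest value of all 6 libraries for 20 of the 35, a count for which no share of all genes was computed. The median of the 35 there was 0.361 TPM, and the counting error of such low values cannot be given. An excess of at least 1 log2 unit over each other library was found in knockout library 3 for 22 of the 35. That excess was found for 0.424% of all genes in the table, and for 0.797% of the 12414 genes that reached 1 TPM in at least 1 library. No member had it in any of the other 5 libraries, where 0.0644% to 0.894% of these 12414 genes had it. In bulk RNA, a larger share of dividing cells and more of these transcripts per cell cannot be told apart.

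**Figure D2:**
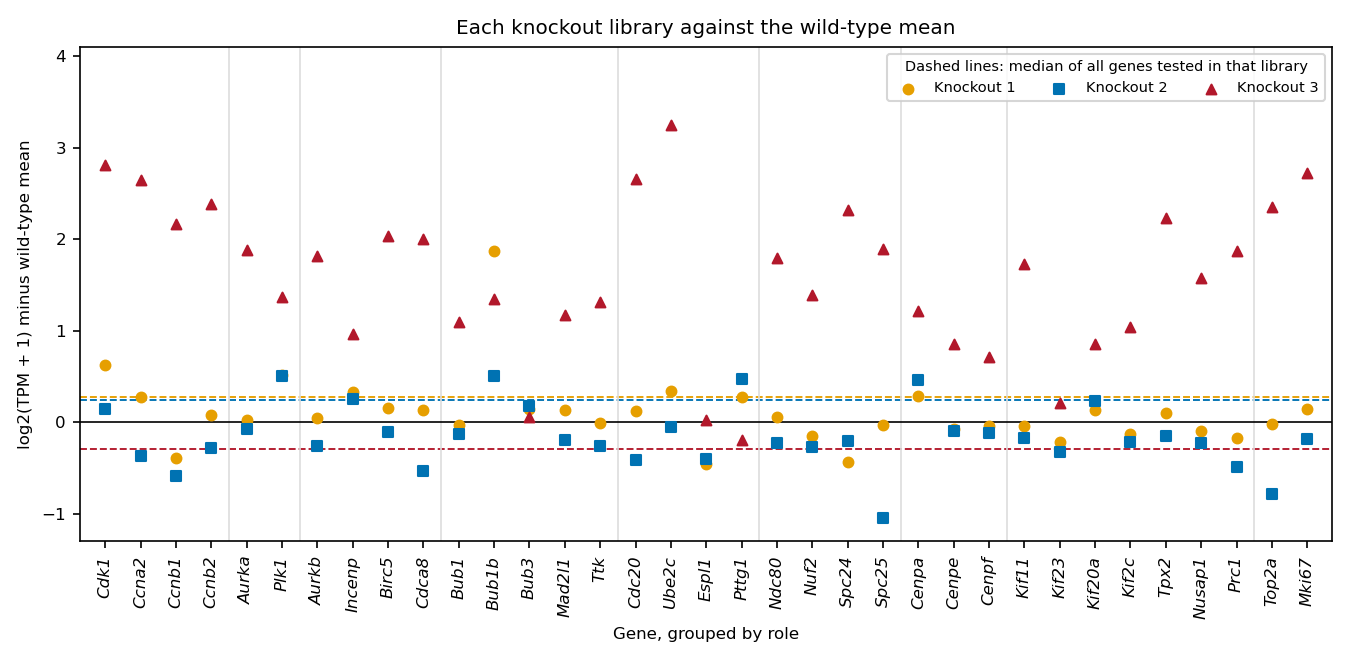
Difference of each knockout library from the wild-type mean, in units of log2(TPM + 1), for each of the 35 genes; dashed lines give the median of all genes tested in the same library. The triangles of knockout 3 reach from -0.20 for Pttg1 to 3.25 for Ube2c, and the marks of knockout 1 and 2 lie mostly near 0.

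As a comparison of genotypes, no member that was tested passed. Of the 35, 13 had at least 1 TPM in at least 3 libraries and entered limma's test. Of the 22 others, 14 reached 1 TPM in knockout library 3 alone, so the test left out genes that were high in a single library. By limma, 0 of the 13 passed at an adjusted p of 0.05, against 0.39% of all genes tested. At an unadjusted p of 0.05 there were 3 (Bub1b, Plk1 and Cenpa), where the background was 15.4%. Each of these 3 was at 1 TPM or more in the 3 knockout libraries alone and so entered the test only through the group in which it was high, and nothing is read from their count. Over all 35 genes, with no filter, the median log2 fold change was 0.52, against 0.091 for the 12414 genes that reached 1 TPM in any library. Without knockout library 3 the median of the 35 turned to -0.086, against 0.25 for the same 12414 genes.

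The switch into mitosis is thrown by Cdk1, a kinase that works only with a cyclin partner. Cdk1 measured 1.68, 0.924 and 11.2 TPM in knockout libraries 1, 2 and 3 and 0.567, 0.716 and 0.968 TPM in wild-type libraries 1, 2 and 3. Cyclin A2 (Ccna2), which acts in S phase and early mitosis, measured 1.03, 0.297 and 9.48 TPM in knockout, against 0.618, 0.316 and 1.22 TPM in wild type. For both genes knockout library 3 was far above all others, and the ranges of the 2 groups overlapped. The B cyclins carry the cell through mitosis. Cyclin B1 (Ccnb1) stood at 7.17 TPM in knockout library 3 and 0.210 to 1.27 TPM elsewhere. Cyclin B2 (Ccnb2) stood at 6.81 TPM there and 0.226 to 0.601 TPM elsewhere. Ccna2 was the only gene of these 4 that entered the test (log2 fold change 0.85, SE 0.70, adjusted p = 0.53), and without knockout library 3 its value was -0.047 (SE 0.29, adjusted p = 0.91).

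Among the mitotic kinases, Aurora A and Polo-like kinase 1 differed in pattern. Aurora A (Aurka), which matures the centrosomes at the spindle poles, stood at 0.928, 0.803 and 6.01 TPM in the 3 knockout libraries, against 0.669, 1.04 and 1.03 TPM in wild type. Only knockout library 3 was outside the wild-type range on the high side, and the log2 fold change of 0.61 (SE 0.49, adjusted p = 0.53) became -0.03 without it. Polo-like kinase 1 (Plk1), which acts from mitotic entry to cytokinesis, measured 1.26, 1.23 and 3.06 TPM in knockout, against 0.421, 0.527 and 0.813 TPM in wild type. All 3 knockout values were above all wild-type values, and the first 2 were nearly equal. For Plk1 limma gave 0.79 (SE 0.27, adjusted p = 0.23) as the log2 fold change, and 0.51 (SE 0.18, adjusted p = 0.058) without knockout library 3.

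The chromosomal passenger complex corrects faulty attachments of chromosomes to the spindle. Its enzyme is Aurora B (Aurkb), which stood at 3.52 TPM in knockout library 3 and 0.0711 to 0.355 TPM in the rest. Survivin (Birc5) and borealin (Cdca8), which bring the enzyme to the centromere, stood at 4.31 TPM against 0.180 to 0.444 TPM and at 5.78 TPM against 0.171 to 1.00 TPM. The scaffold INCENP (Incenp) was the least uneven of the 4. It measured 2.12, 1.97 and 3.85 TPM in the 3 knockout libraries, against 1.73, 1.27 and 1.47 TPM in wild type, so the groups did not overlap (log2 fold change 0.52, SE 0.24, adjusted p = 0.35, and 0.29 without knockout library 3).

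The spindle checkpoint holds a cell in mitosis until every chromosome is attached. Its genes did not share 1 pattern. Bub1b, which encodes the checkpoint protein BubR1, measured 4.89, 1.29 and 3.12 TPM in the 3 knockout libraries, against 0.474, 0.763 and 0.621 TPM in wild type. It was the 1 member with its highest value in knockout library 1, and every knockout value was above every wild-type value. The log2 fold change was 1.24 (SE 0.33), the largest of the 13 tested, but it did not pass (adjusted p = 0.14). Bub1b was under 1 TPM in every wild-type library, and its place among the genes tested rests on its knockout values. Without knockout library 3 it passed at 1.18 (SE 0.37, adjusted p = 0.037), as 45.5% of all genes tested did, and it passed in 2 of 15 alternatives in which it could be tested (adjusted p 0.023 to 0.51). Bub3, a partner that binds both Bub1 and BubR1, varied little. It measured 17.8, 18.2 and 16.7 TPM in knockout, against 15.5, 16.8 and 15.7 TPM in wild type, a log2 fold change of 0.13 (SE 0.19, adjusted p = 0.72) that took the opposite sign under quantile normalization (-0.048). The kinase gene Bub1 was low throughout, at 1.37 TPM in knockout library 3 and 0.0160 to 0.157 TPM elsewhere. Ttk, which encodes the kinase Mps1 at the head of the checkpoint, was at 2.11 TPM against 0.0446 to 0.470 TPM. Mad2l1, whose product Mad2 binds and blocks Cdc20, measured 3.95, 2.94 and 9.18 TPM in knockout, against 2.95, 3.40 and 4.34 TPM in wild type (adjusted p = 0.6). Only knockout library 3 lay outside the wild-type range of Mad2l1 on the high side.

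Anaphase begins when the anaphase-promoting complex, APC/C, marks securin and cyclin B for destruction. Ube2c, the E2 enzyme that gives the APC/C its ubiquitin, had the largest difference of all members in knockout library 3. It measured 1.49, 0.896 and 17.7 TPM in the 3 knockout libraries, against 0.746, 0.954 and 1.22 TPM in wild type, a ratio of 11.8 between knockout library 3 and the next library. Cdc20, the APC/C activator that the checkpoint restrains, followed the same pattern at 1.06, 0.429 and 10.98 TPM in knockout, against 1.10, 0.880 and 0.730 TPM in wild type. Neither passed the test (log2 fold changes 1.18, SE 0.78, and 0.79, SE 0.71; adjusted p = 0.45 and 0.56), and without knockout library 3 the values were 0.15 and -0.15. The securin gene Pttg1 and the separase gene Espl1, the inhibitor and the protease that cuts the ties between sister chromosomes, did not share the pattern. Pttg1 measured 10.3, 11.9 and 7.12 TPM in knockout, against 8.197, 9.74 and 7.21 TPM in wild type, lowest in knockout library 3 (log2 fold change 0.18, SE 0.26, adjusted p = 0.71). Espl1 measured 0.381, 0.430 and 0.922 TPM in knockout, against 0.961, 1.01 and 0.712 TPM in wild type. In knockout library 3 Espl1 was within the wild-type range, and in the other knockout libraries it was below it.

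The outer kinetochore grips the spindle fibres through the Ndc80 complex of 4 proteins. All 4 of its genes were highest in knockout library 3. The genes of the dimer that touches the microtubule, Ndc80 and Nuf2, stood at 3.70 TPM against 0.158 to 0.402 TPM in the rest and at 2.80 TPM against 0.202 to 0.677 TPM. The genes of the dimer that faces the centromere, Spc24 and Spc25, were higher in level. Spc24 stood at 8.95 TPM against 0.468 to 1.69 TPM. Spc25 measured 3.51, 1.23 and 16.1 TPM in the 3 knockout libraries, against 3.66, 3.80 and 3.40 TPM in wild type. Knockout library 2 was the lowest of the 6 for Spc25, and its log2 difference from the wild-type mean (-1.05) was the lowest of any member in any knockout library. The log2 fold change of Spc25 was 0.27 (SE 0.66, adjusted p = 0.84), and it turned to -0.54 (SE 0.29, adjusted p = 0.16) without knockout library 3.

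Of the centromere genes, Cenpa encodes the histone variant that marks the site where the kinetochore forms. It measured 1.32, 1.61 and 3.40 TPM in the 3 knockout libraries, against 0.866, 0.868 and 0.974 TPM in wild type. Every knockout value exceeded every wild-type value, and the log2 fold change was 0.65 (SE 0.26, adjusted p = 0.3), or 0.37 without knockout library 3. The motor protein gene Cenpe and the large kinetochore protein gene Cenpf were near or below 1 TPM everywhere, at 1.12 and 0.930 TPM in knockout library 3, against 0.0593 to 0.354 and 0.0813 to 0.215 TPM in the rest.

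The spindle is built by motors and by proteins that bundle its fibres. Prc1, which bundles the midzone fibres, measured 1.72, 1.18 and 10.2 TPM in the 3 knockout libraries, against 2.0003, 1.70 and 2.54 TPM in wild type (log2 fold change 0.40, SE 0.57, adjusted p = 0.71). Without knockout library 3 the value of Prc1 was -0.33 (SE 0.19). Tpx2, which activates Aurora A on the spindle, stood at 5.28 TPM in knockout library 3 and 0.186 to 0.448 TPM in the others. Kif11, the motor that pushes the poles apart, stood at 4.098 against 0.361 to 0.608 TPM, and the fibre-binding gene Nusap1 at 3.55 against 0.305 to 0.660 TPM. These genes were all highest in knockout library 3. The depolymerizing motor gene Kif2c, at 1.55 TPM there, was at 0.0737 to 0.410 TPM elsewhere. The cytokinesis motor gene Kif23 was low and only 1.36 times as high in knockout library 3 as in the next library, at 0.184, 0.102 and 0.595 TPM in knockout, against 0.372, 0.439 and 0.333 TPM in wild type. Kif20a, another cytokinesis motor gene, measured 0.647, 0.766 and 1.73 TPM in knockout, against 0.475, 0.577 and 0.459 TPM in wild type, with no overlap between the groups, but it stayed below the level needed for the test.

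The 2 genes most used to mark dividing cells showed the pattern of the cyclins. Mki67 encodes Ki-67, which coats mitotic chromosomes, and Top2a the enzyme that untangles them. Mki67 measured 0.890, 0.504 and 10.3 TPM in the 3 knockout libraries, against 0.655, 0.719 and 0.743 TPM in wild type. Top2a measured 0.968, 0.160 and 9.19 TPM in knockout, against 0.777, 0.956 and 1.28 TPM in wild type. In both cases knockout library 3 was at least 7 times the next library and the other knockout libraries were at or below 1 TPM.

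Across the 35 genes, every knockout library was above every wild-type library for 5, namely Bub1b, Plk1, Cenpa, Incenp and Kif20a (background 3.83%), and below for 0 (background 10.6%). For each of the 5 the two-sided exact permutation p was 0.1, the lowest that 3 against 3 libraries can reach. Leaving out knockout library 3, there were 7 above, with Bub3 and Pttg1 added (background 27.9%), and 5 below, namely Ccnb1, Espl1, Kif23, Kif2c and Nusap1 (background 13.6%). Of the 12414 genes that reached 1 TPM in any library, 716 were above and 1904 below with all libraries. Without knockout library 3 these counts were 5725 and 2424. In knockout libraries 1 and 2 the all-gene medians were 0.27 and 0.24. The differences of Incenp (0.33 and 0.26), Bub3 (0.15 and 0.18) and Kif20a (0.13 and 0.23) were close to or under them. Those of Cenpa (0.29 and 0.46), Pttg1 (0.28 and 0.47), Plk1 (0.52 and 0.50) and Bub1b (1.87 and 0.50) were above them. These 7 genes were picked by their knockout values, so nothing is read from where they lie.

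Other genes of cell division were read from lists written by role. Of 34 other kinetochore genes, 24 were highest in knockout library 3 (4.9% of all genes were), and their median difference there was 0.56. It was 0.13 in knockout library 1 and 0.00050 in knockout library 2. Of 28 other spindle and cytokinesis genes 21 were highest in knockout library 3, with medians of 0.11, -0.038 and 1.13 in knockout libraries 1, 2 and 3. The remaining lists hold genes that also act outside mitosis. Of 18 condensin and cohesin genes 8 were highest in knockout library 3 (medians 0.38, 0.27 and 0.20). Of 17 APC/C genes, which act throughout the cell cycle, 2 were (medians 0.056, 0.038 and -0.33). Of 26 G2/M regulators 9 were (medians 0.14, 0.11 and 0.33). Of the 73 genes of these 5 lists that were tested, 0 passed limma's test over all genes (background 0.39%), and 17 had an unadjusted p under 0.05 (15 higher, 2 lower; background 15.4%). Without knockout library 3, 26 passed higher and 5 lower, where 45.5% of all genes tested passed.

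**Figure D3:**
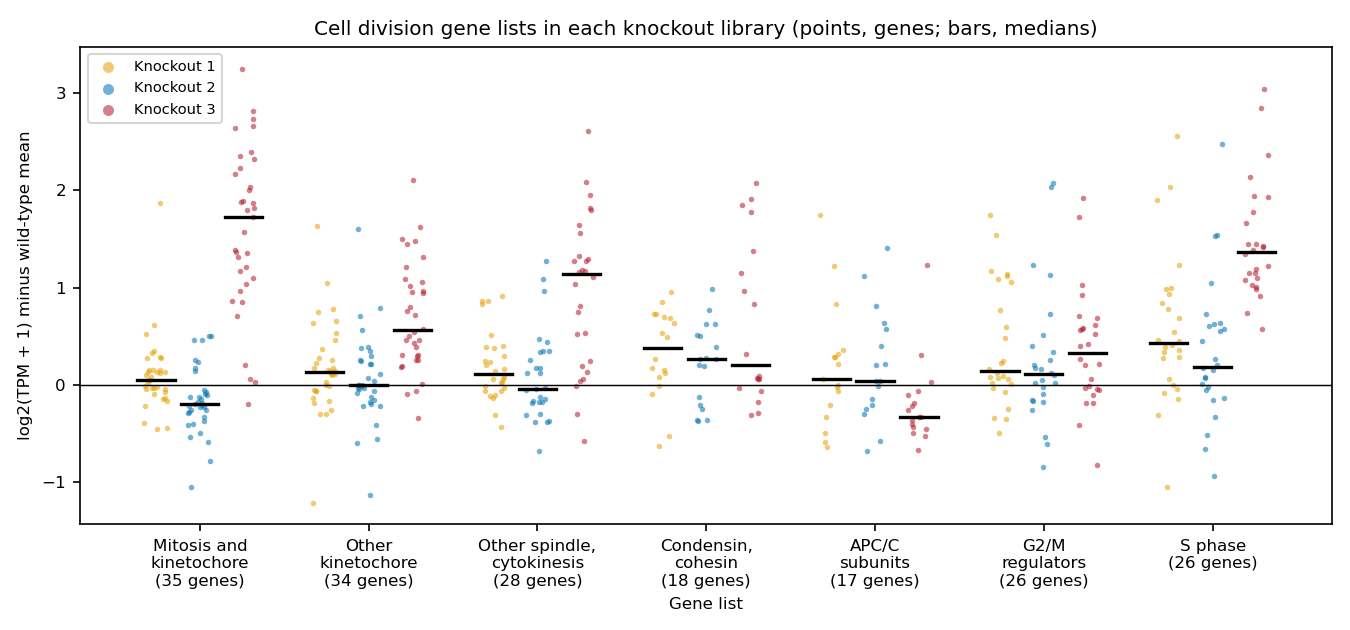
Difference from the wild-type mean in units of log2(TPM + 1) for each gene (points) of 7 lists in each knockout library, with the median of each list as a bar. In knockout 3 the medians are 1.73 for the mitosis and kinetochore genes, 1.13 for other spindle genes and 1.37 for S-phase genes, and -0.33 for APC/C subunits.

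Named by smallest p within their lists, several of these genes were lower in knockout library 3 than in the other knockout libraries. Zwint, which helps to dock the checkpoint at the kinetochore, measured 40.5, 39.6 and 14.3 TPM in the 3 knockout libraries, against 11.1, 15.6 and 10.9 TPM in wild type (adjusted p = 0.25). Wee1, the kinase that keeps Cdk1 off, measured 12.3, 12.4 and 8.34 against 3.96, 5.01 and 6.67 TPM (adjusted p = 0.16), and Cdc25b, a phosphatase that turns Cdk1 on, 3.53, 7.44 and 2.29 against 0.772, 1.26 and 1.03 TPM (adjusted p = 0.14). In these 3 genes knockout libraries 1 and 2 exceeded knockout library 3. Plk4, which starts the copying of centrioles, measured 2.46, 1.55 and 2.78 against 0.882, 0.616 and 1.06 TPM (log2 fold change 0.81, SE 0.22, adjusted p = 0.14), without overlap. The kinetochore gene Pmf1 (0.71, adjusted p = 0.17), the spindle gene Haus4 (0.76, 0.32), the cohesin gene Smc3 (0.50, 0.32) and the condensin gene Ncapd2 (0.55, 0.32) had log2 fold changes above 0 and did not pass. Nor did the APC/C genes Anapc16 (0.74, adjusted p = 0.37) and Anapc7 (0.92, 0.4). Without knockout library 3 both passed, at 1.17 (adjusted p = 0.0018) and 1.58 (0.00066), as did Zwint (1.62, 0.00097), Wee1 (1.12, 0.0048), Cdc25b (1.62, 0.0041), Haus4 (1.07, 0.004), Plk4 (0.69, 0.032), Pmf1 (0.68, 0.011) and Smc3 (0.60, 0.017). In that fit 45.5% of all genes tested passed. The genes named here were picked by smallest p in these same data, so nothing is read from how many passed. With log2 fold changes below 0, and again not passing, were Mis12 (-0.64, adjusted p = 0.48), Cenpc1 (-0.18, 0.74), Haus1 (-0.0062, 0.99), Pds5b (-0.39, 0.38), Cdc16 (-0.55, 0.26), Anapc13 (-0.42, 0.38), E2f5 (-0.72, 0.17) and Cks1b (-0.34, 0.45). Knockout library 3 was the highest of all 6 for Mis12 and Cenpc1. Without it Mis12 passed at -1.17 (adjusted p = 0.0048) and Cenpc1 stood at -0.43 (0.084), while Cdc16 (-0.66, 0.0069), E2f5 (-0.67, 0.019) and Cks1b (-0.48, 0.03) passed. The activators of the mitotic programme differed in pattern. Foxm1 measured 0.347, 0.112 and 3.09 TPM in knockout, against 0.212, 0.203 and 0.298 TPM in wild type, and Mybl2, encoding B-Myb, 0.921, 0.470 and 0.677 against 0.156, 0.240 and 0.440 TPM. Foxm1 was high in knockout library 3 alone, and Mybl2 was highest in knockout library 1.

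S-phase genes, which copy the DNA before mitosis, were high in knockout library 3. All 26 lay above every wild-type library there, as did 9.52% of all genes tested. In knockout library 1, 19 of the 26 did (73.1%, against 56.5% of all genes tested), and in knockout library 2, 15 did (57.7%, against 55.2%). Their median differences were 1.37, 0.43 and 0.19 in knockout libraries 3, 1 and 2, beside all-gene medians of -0.29, 0.27 and 0.24. For 14 of the 26, every knockout library was above every wild-type library (background 3.83%). Among the 11268 genes tested, 611 met that rule. Uhrf1, which keeps DNA methylation through replication, and Chaf1b, a histone chaperone subunit of the replication fork, were the 2 of 24 tested that passed. Of all genes tested 0.39% passed. Uhrf1 measured 17.4, 16.4 and 12.7 TPM in knockout, against 1.74, 2.09 and 2.59 TPM in wild type (log2 fold change 2.39, SE 0.23, adjusted p = 0.014), and Chaf1b 4.23, 5.42 and 6.64 against 1.15, 1.18 and 1.36 TPM (1.51, SE 0.22, adjusted p = 0.045). Uhrf1 passed in 11 of 16 alternatives (adjusted p 0.00022 to 0.15) and Chaf1b in 3 of 15 (adjusted p 0.00074 to 0.26). Leaving out any 1 library other than knockout library 3 ended both calls. Knockout library 3 had the lowest Uhrf1 and the highest Chaf1b level of the knockout libraries. Its Mcm6, a subunit of the replicative helicase, was at 13.9 TPM against 1.32 to 2.13 TPM in the other 5 libraries.

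Markers of other cell types differed between the libraries as well. Summed over their genes, 4 of the 5 non-epithelial lists were lowest in knockout library 3, where the mitotic genes were highest. The macrophage and dendritic list was lowest in knockout library 2. In knockout library 3, 66.9% of all genes tested were below every wild-type library, and their median difference was -0.29. Median differences there were -1.87 for fibroblast, -0.90 for macrophage and dendritic, -0.32 for endothelial and 0 for erythroid genes. The 7 fibroblast genes summed to 131 TPM in knockout library 3, 270.5 and 157 TPM in knockout libraries 1 and 2 and 279 to 358 TPM in wild type. The 10 macrophage and dendritic genes summed to 201 TPM in knockout library 3, 309 and 185 TPM in the other knockout libraries and 522 to 609 TPM in wild type. The 12 lymphocyte and plasma cell genes summed to 13.97 TPM there, 41.8 and 28.6 TPM in the other knockout libraries and 31.9 to 90.1 TPM in wild type. Their median difference in knockout library 3 was -0.19, beside an all-gene median of -0.29. The T-cell gene Cd3e and the B-cell gene Ms4a1 were at or under 0.190 TPM in every library. The 5 endothelial genes summed to 15.3 TPM in knockout library 3 and 20.5 to 25.2 TPM in the rest, and the 6 erythroid genes, of which the 4 globin genes were listed at 0 in every library, to 1.56 TPM and 3.23 to 6.90 TPM. No gene of these 5 lists had its highest value in knockout library 3, where only 4.9% of all genes in the table had theirs.

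Epithelial markers did not single out knockout library 3 on the high side either. The 6 general epithelial genes summed to 709 TPM there, 1489 and 1676 TPM in knockout libraries 1 and 2, and 964 to 1134 TPM in wild type. All 6 were below every wild-type library in knockout library 3, as were 66.9% of all genes tested. Krt7 and Krt19 were below every wild-type library in all knockout libraries, and the higher sums of knockout libraries 1 and 2 rest on Krt18, at 907, 1059 and 272 TPM in the 3 knockout libraries, against 411, 379 and 368 TPM in wild type. The 7 genes of basal and myoepithelial cells, the cells that carry p63, summed to 226, 123 and 146 TPM in knockout libraries 1, 2 and 3 and to 350 to 453 TPM in wild type. The 8 granular tubule genes summed to 19844, 4921 and 13947 TPM in the knockout libraries and to 67242 to 77741 TPM in wild type. The 7 acinar genes summed to 114185, 144450 and 86263 TPM in the knockout libraries and to 79794 to 88518 TPM in wild type. That sum is nearly all Prol1, the 1 acinar gene above every wild-type library in every knockout library. The median difference of the 7 was 0.57, -3.44 and -1.29 in knockout libraries 1, 2 and 3. In knockout library 3, 5 of the 7 were below every wild-type library, against 66.9% of all genes tested. The part of these shifts in the level of the mitotic genes was not tested, and the files do not show which cells held the mitotic transcripts.

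**Figure D4:**
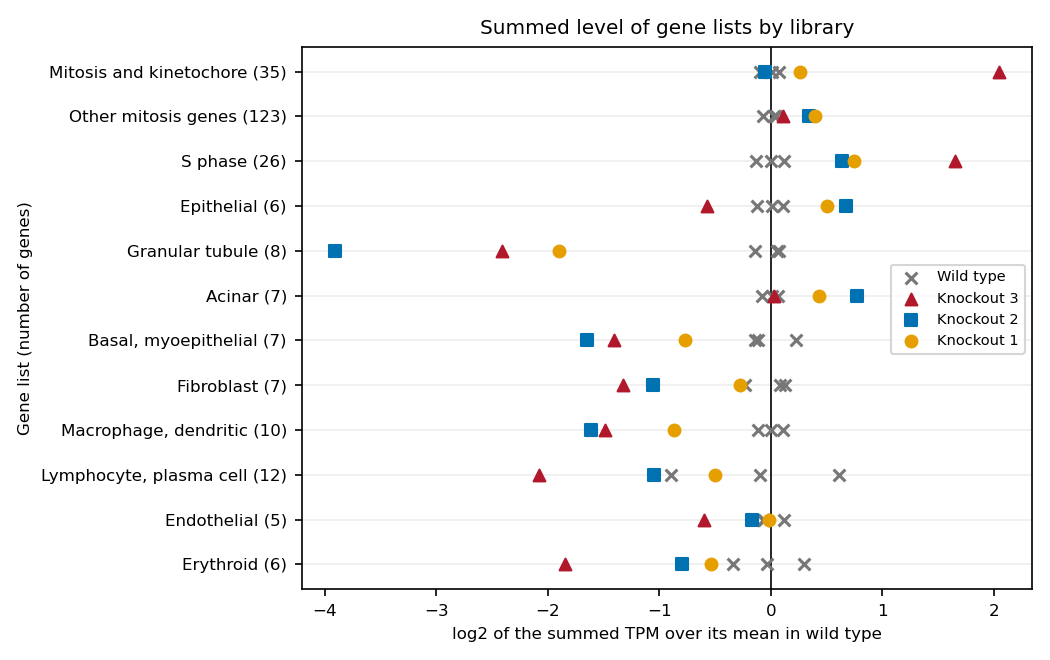
Summed TPM of each gene list in each library, as log2 of its ratio to the wild-type mean (x axis), with the number of genes in brackets. For the mitosis and kinetochore genes knockout 3 stands at 2.04 and the other 5 libraries between -0.097 and 0.26. For the lymphocyte and plasma cell genes knockout 3 stands at -2.08 and the wild-type libraries between -0.89 and 0.61.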

How the data were processed

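The authors deposited 1 table of TPM, obtained per the labels from raw counts corrected for gene length and for library size. The submitters' processing notes name TopHat2 2.1.1, Bowtie2 2.2.6, featureCounts 1.5.1, DESeq2 1.20.0 and the mouse genome mm9. Annotation, gene lengths and strand setting are not given in the sources used here. Depth cannot be recovered from TPM, and neither counting errors nor detection limits were computed. Libraries were made with the Illumina TruSeq RNA kit from total RNA, per the labels' protocols.

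The genotype label gave the groups, and accession order only numbered the libraries. How mice were allotted to libraries is not given in the sources used here, and p-values then reflect the spread of these samples alone, which may be technical. Values were transformed to log2(TPM + 1). Genes had to reach 1 TPM in 3 or more libraries, which left 11268 for limma 3.58.1 in R 4.3.3 (moderation with a mean-variance trend, two-sided, Benjamini-Hochberg over these genes, threshold 0.05). Such fold changes understate the change of low genes. Beside a count of members, the background is the share of all genes that meets the same rule. All genes in the table include 5229 listed at 0 in every library.

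The members and lists were chosen with earlier results of these data known. Values in every library are given for members that entered the test and for the 3 highest others. Of each other list, genes that passed are named, or otherwise the 2 with the smallest p in each direction. The full values of Espl1, Kif20a, Kif23, Foxm1 and Mybl2, Mcm6 and the promoters printed were chosen after their values were seen. Alternatives were a pseudocount of 0.1 or 0.5 TPM, testing without a filter, a stricter filter of 5 TPM, 3 other scalings, limma without trend or with array weights, a block of neighbouring library index numbers, and leaving out each library. Chosen after seeing the data was leaving out knockout library 3 from the counts of non-overlapping genes and from the unfiltered median. The procedure was tested on simulated data. Promoters are RefSeq windows on GRCm38.p6, matched by symbol and unrelated to the mm9 counting. Figures were drawn with matplotlib 3.10.9.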

Additional observations from a re-analysis of the deposited data

How the results depend on the processing

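By limma, 0 of the mitosis and kinetochore genes tested passed in 14 of 16 alternatives, and 1, Bub1b, passed with array weights and without knockout library 3 (leaving out each library in turn gave 0 to 1). The number of all genes passing was 44, and 25 with a pseudocount of 0.1 TPM, 11 without a filter, 29 with the filter of 5 TPM, 72 under quantile normalization, 4822 with array weights, and 0 to 5127 without each library in turn (5127 without knockout library 3, 11 and 16 without knockout libraries 1 and 2, and 1, 0 and 0 without wild-type libraries 1, 2 and 3, where 879, 1024 and 1020 had an unadjusted p under 0.05). Array weights gave knockout library 3 a weight of 0.090, against 0.763 to 2.76 for the others. The median over all 35 genes, 0.52, turned to -0.086 without knockout library 3, against 0.25 for the 12414 genes that reached 1 TPM in any library. Of 195 single-gene values under alternatives, 12 turned negative. With array weights these were Ccna2 (-0.071), Mad2l1 (-0.068), Cdc20 (-0.088), Spc25 (-0.58) and Prc1 (-0.31). Without knockout library 3 they were Ccna2 (-0.047), Aurka (-0.030), Mad2l1 (-0.036), Cdc20 (-0.15), Spc25 (-0.54) and Prc1 (-0.33), whose highest values, each without knockout library 2, were 1.46, 0.95, 0.65, 1.39, 0.93 and 0.85. Under quantile normalization it was Bub3 (-0.048). These settings reduce or remove the weight of knockout library 3, except quantile normalization, where the cause was not tested.

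The labels give no shared replicate numbers, but the index numbers in the titles neighbour each other across groups. Nothing in the labels says that neighbours share a litter, day or batch. Libraries with neighbouring index numbers deviated together with correlations across genes of 0.17, 0.23 and 0.077, and each library correlated best with its neighbour. With that block, 0 members and 31 of all genes passed. Depth is unknown, so values under 1 TPM carry an error that cannot be stated.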

Other observations

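Knockout library 3 exceeded each other library by at least 1 log2 unit for 99 genes of the whole table. Of these, 22 were mitosis and kinetochore genes described above, 28 came from the 5 lists of other mitosis genes and 9 from the S-phase list, which leaves 40 (40.4%) outside every list. The examples named here were chosen after their values were seen. The highest of the 40 was Pbk, a kinase gene of mitotic cells, at 19.996 TPM against 0.127 to 1.58 TPM in the other 5 libraries. Some belong to DNA repair and the replication checkpoint. Brca1 stood at 1.53 TPM against 0.0732 to 0.245 TPM, and the checkpoint kinase gene Chek1 at 3.05 TPM against 0.246 to 0.669 TPM.

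Some of the 40 were abundant in all libraries. Tubb5, a beta-tubulin gene, stood at 67.4 TPM in knockout library 3 and 12.8 to 30.7 TPM in the rest. Stmn1, encoding the microtubule regulator stathmin, stood at 47.5 against 6.51 to 22.05 TPM, and the transferrin receptor gene Tfrc at 70.4 against 16.9 to 32.2 TPM. Others have no link to division in the lists used here. Gdf5, a growth factor gene of the BMP family, stood at 21.1 TPM against 1.58 to 6.35 TPM, and Nr4a3, an early response gene, at 7.24 TPM against 0.246 to 0.616 TPM. Small-RNA genes were also among the 40. Scarna9 stood at 3.73 TPM and Mir181b-1 at 1.96 TPM, both listed at 0 in every other library. Snord47 stood at 21.7 TPM against 1.94 to 10.02 TPM.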
